A study of Homo sapiens and Homo sapiens
Mus musculus and Mus musculus with 9 samples.

Results

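The 8 genes described here belong to the signals that hold blood stem cells, and prostate cancer cells that spread to bone, in the bone marrow. They were taken by their symbols from the authors' table of the series: the chemokine CXCL12 with its receptors CXCR4 and ACKR3, the chemokine CXCL16 with its receptor CXCR6, and annexin A2 (ANXA2) with its binding partner S100A10 and its receptor ANXA2R. The table lists 41713 genes, of which 19939 are protein-coding, and all 8 were found in it. The levels of the 8 genes were far apart. Per kb of exons, ACKR3 stood 750 times above CXCR4 in the Xenome means, and CXCL16 stood 1214 times above CXCL12 (443 and 458 times per kb of the canonical transcripts), while ANXA2 was read at a mean normalized count of 13.2 over all libraries. The sizes of these folds are loose, since CXCR4 had 0 reads in 3 of 6 libraries and CXCL12 in 2. With 3 reads set in each library at 0, they would be 75.9 and 439 times (44.8 and 165 times by canonical transcripts). The exact Poisson interval of a count of 0 reaches above 3 reads, so these smaller folds are not lower limits.

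Osteoblasts and other stromal cells of the marrow secrete CXCL12, which draws and holds cells that carry CXCR4, a receptor that signals through G proteins. ACKR3, also known as CXCR7, binds the same chemokine but works mainly through arrestins and takes the chemokine up from around the cell. CXCL16 is made as a membrane-bound chemokine that proteases can shed, and CXCR6 is its receptor. Annexin A2 is a calcium-dependent membrane-binding protein. S100A10, also known as p11, joins it in a complex that binds plasminogen and its activator at the cell surface. Annexin A2 on osteoblasts has been described as an anchor for cancer cells that carry ANXA2R.

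The libraries were stranded mRNA libraries of human C4-2B prostate cancer cells cultured alone (3 libraries) and of C4-2B cells mixed with mouse MC3T3-E1 pre-osteoblasts at a ratio of 1 to 30 (3 libraries). All cells were of the WT genotype and were grown in alpha-MEM with 10% FBS, with no drug named. The study's methods describe co-culture with C4-2B cells that carried a GFP label. A further 3 libraries of MC3T3-E1 cells alone have no column among the values used here. C4-2B and MC3T3-E1 are each 1 established line, and nothing in the labels states that the libraries of a group came from separate cultures. The design asks how contact with osteoblasts changes the human cells. The values that could be used for these genes are the authors' means over both groups, 1 for each of the 3 pipelines that separated human from mouse reads (Xenome, XenofilteR and Kallisto), so the co-culture and C4-2B alone cannot be told apart in them and no fold change between the groups is given. In a bulk mean, fewer cells of a type and less RNA per cell cannot be told apart either. The means count reads assigned to human genes. Reads assigned to the mouse genes Cxcl12 and Anxa2 of the MC3T3-E1 cells are not part of them, so the levels of these genes in the osteoblasts are not shown.

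The labelled human line could be checked against its markers. Of 9 prostate cancer line markers, 8 were in the table, and their Xenome means ran from 5200 for EPCAM to 51038 for KLK3. Of 11 osteoblast markers counted as human reads, 4 reached a mean of 10, with COL1A1 highest at 3384 and ALPL lowest at 0.103. Of 5 haematopoietic and endothelial markers, VWF (279) and CD68 (26.7) reached 10, and PTPRC, PECAM1 and CDH5 lay at 0.972, 0.391 and 0.341. Some of these markers differed widely between pipelines. With Kallisto, PTPRC, CD68 and PECAM1 had means of 63.2, 462.8 and 39.2, and COL1A2 went from 45.0 (Xenome) to 263.6 (XenofilteR) and 221.6 (Kallisto). The part of such reads in the values of the 8 genes was not tested.

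How much human and mouse copies of a gene look alike bears on every value below, because a read from the co-culture must be given to 1 species. The libraries were read in 50-base ends. The coding sequence of CXCL12 was identical to that of mouse Cxcl12 at 241 of 267 bases (90.3%). ANXA2 and S100A10 were as close to their mouse genes, with 89.6% and 89.7% of coding bases identical, followed by ACKR3 (88.7%), CXCR4 (86.8%), CXCR6 (80.6%) and CXCL16 (66.9%). No mouse gene of the symbol Anxa2r was found among the mouse transcripts used here. The longest coding run that is the same in both species is printed for the receptor pair CXCR4 and ACKR3, for the ligand CXCL12, for ANXA2, and for CXCL16 as the most different gene. The shared run is in capitals, with up to 10 bases on either side in lower case.
CXCL12: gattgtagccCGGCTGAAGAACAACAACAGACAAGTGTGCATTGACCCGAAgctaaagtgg
CXCR4: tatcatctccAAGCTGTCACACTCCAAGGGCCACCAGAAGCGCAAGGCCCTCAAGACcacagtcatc
ACKR3: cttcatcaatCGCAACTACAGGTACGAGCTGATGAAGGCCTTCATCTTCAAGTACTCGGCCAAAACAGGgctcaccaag
ANXA2: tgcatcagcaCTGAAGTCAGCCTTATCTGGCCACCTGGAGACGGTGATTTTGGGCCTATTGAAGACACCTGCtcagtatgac
CXCL16: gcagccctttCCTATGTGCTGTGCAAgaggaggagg

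The runs of ACKR3 (59 bases) and ANXA2 (62 bases) are longer than a 50-base read end, so that a read end lying inside them carries no base that names the species, and its mate would have to. Those of CXCR4 (47 bases), S100A10 (44 bases), CXCL12 (41 bases), CXCR6 (26 bases) and CXCL16 (16 bases) are shorter. These runs cover coding sequence only. Over all transcripts, untranslated exons included, 73 of the 50-base sequences of CXCL12, 19 of ACKR3 and 13 of ANXA2 were also in mouse transcripts, and 0 of the other 5 genes. On GRCh38, the printed CXCR4 stretch lies on the minus strand at chr2:136115199-136115265 in exon 2 of 2. The ACKR3 stretch lies on the plus strand at chr2:236581413-236581491, in exon 2 of 2. The ANXA2 stretch is in exon 5 of 13, on the minus strand at chr15:60360968-60361049. The CXCL12 stretch joins exons 2 and 3 of 3 and spans chr10:44378669-44380768 on the minus strand, with the intron between them left out. For CXCL16 it is exon 4 of 6, on the minus strand at chr17:4735117-4735152.

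CXCL16 and ACKR3 were the most abundant of the 8 genes. CXCL16 (GRCh38 chr17:4733533-4739928) had an authors' mean normalized count of 2512 with Xenome, 2510 with XenofilteR and 2527 with Kallisto, where a normalized count is a read count divided by the library's size factor. These means placed CXCL16 above 76.3% of the protein-coding genes with a Xenome mean above 0, whose median mean was 517. Exons of MED11 and ZMYND15 on the opposite strand overlap 76 and 96 of its 2793 exonic bases, and reads there can be told apart only by strand, which the counting is not stated to have used. Of the 2787 distinct 50-base sequences of its transcripts, 105 occurred in transcripts of other human genes. The authors' means of CXCL16 in the 3 pipelines lay within 1.01 times of each other.

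CXCL12 itself, counted as human reads, had a low mean. In the libraries with the smallest size factors it was near the lower limit of what could be read. Its mean normalized count (chr10:44370165-44386493) came to 4.55 in the Xenome column, 4.64 in the XenofilteR column and 4.84 in the Kallisto column, above 20.6% of protein-coding genes in Xenome. A low mean can be taken apart into the reads of each of the 6 libraries that went into it. The solved libraries carry no label, were ordered by size factor only, and were assigned to no group. In libraries 1 to 6, CXCL12 had 29, 23, 31, 5, 0 and 0 reads, which make 4.89, 4.33, 6.38, 11.7, 0 and 0 normalized counts. XenofilteR gave 91 reads in place of 88, with 1 more in library 1 and 2 more in library 2. The 5 reads of library 4 alone supplied 42.9% of the mean. At 0 reads, the exact 95% interval reached 25.5 normalized counts in library 5 and 33.9 in library 6, and 3 reads would make 20.7 and 27.6. All of these lie above the level in every other library, so a lower level in these 2 libraries was not detectable at this depth.

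**Figure D1:**
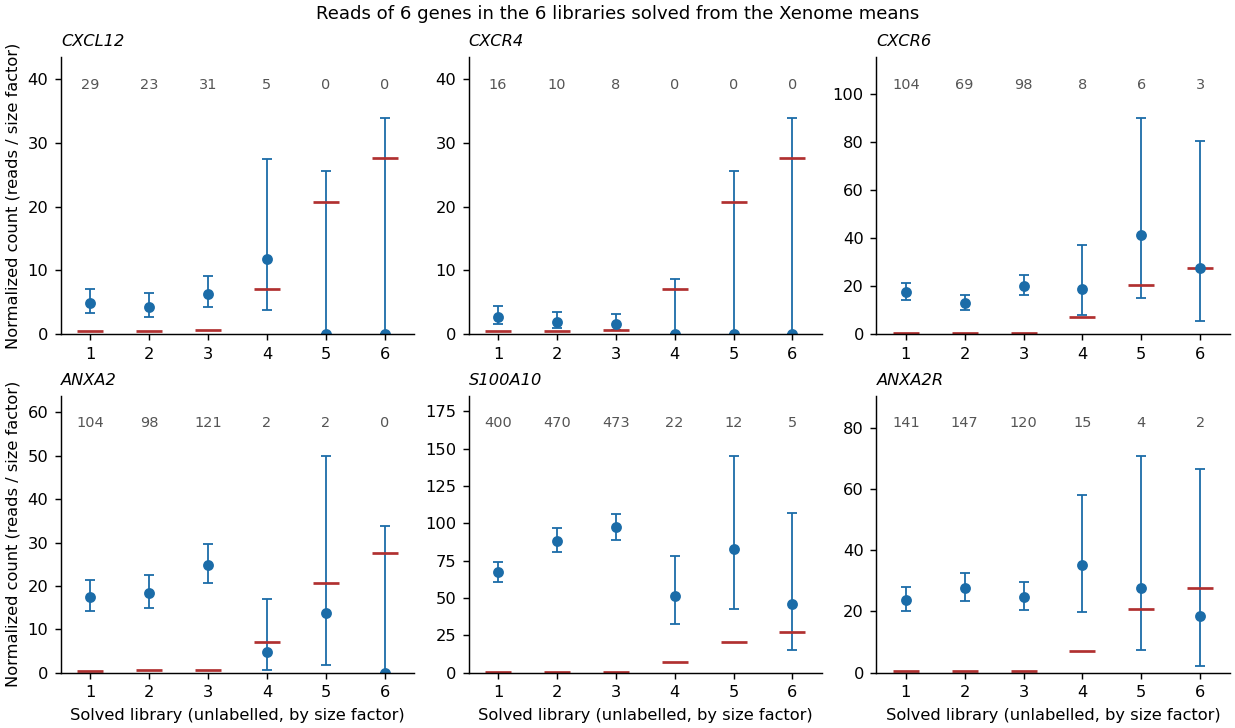
Normalized counts (vertical axis, reads divided by size factor) of 6 genes in each of the 6 unlabelled libraries solved from the Xenome means (horizontal axis, ordered by size factor). Points are the values with exact 95% Poisson intervals, grey numbers are the reads, and red bars mark the level of 3 reads, which climbs from 0.506 in library 1 to 27.6 in library 6.

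CXCR4, the main signalling receptor for CXCL12, had the lowest mean of the 8 genes. The gene (chr2:136114349-136118149) had a mean normalized count of 1.04 with Xenome, 1.15 with XenofilteR and 1.08 with Kallisto, above 12.2% of protein-coding genes in Xenome. Its 34 reads lay in libraries 1 to 3 as 16, 10 and 8 reads, or 2.70, 1.88 and 1.65 normalized counts, and libraries 4 to 6 held 0 reads. In those libraries 3 reads would amount to 7.03, 20.7 and 27.6 normalized counts. The exact 95% intervals of the 0 reads reached 8.65, 25.5 and 33.9. All of these levels lie above the 2.70 of library 1, so a count of 0 in libraries 4 to 6 does not tell CXCR4 in these libraries from CXCR4 in the others. XenofilteR gave 38 reads in place of 34, with 3 more in library 1 and 1 more in library 2.

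ACKR3, the second receptor for CXCL12, stood in the middle of the protein-coding genes. Its mean normalized count (chr2:236567787-236582354) came to 555 (Xenome), 554 (XenofilteR) and 553 in the Kallisto column, above 50.9% of protein-coding genes by mean and above 66.4% by mean per kb of exons. The ACKR3 mean was too high for whole reads to be solved. Per kb, ACKR3 was 750, 674 and 719 times CXCR4 in the Xenome, XenofilteR and Kallisto means, and 443, 398 and 425 times per kb of the canonical transcripts. It also stood 362, 354 and 339 times above CXCL12 per kb of exons, and 117, 114 and 109 times by canonical transcripts. With 3 reads in each library at 0, the Xenome folds over CXCR4 and CXCL12 would be 75.9 and 131 times per kb of exons. By canonical transcripts they would be 44.8 and 42.2 times. So of the 2 CXCL12 receptors, the arrestin-coupled one made up nearly all of the mean per-kb level as listed in each of the 3 pipelines. No 50-base sequence of ACKR3 transcripts occurred in another human gene.

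CXCR6, the receptor of CXCL16, was read at a low level in all 6 libraries. Its mean normalized count (chr3:45940933-45948351) was 23.1 in both the Xenome and the XenofilteR columns and 23.6 in Kallisto. Reads in libraries 1 to 6 numbered 104, 69, 98, 8, 6 and 3, and the normalized counts were 17.6, 13, 20.2, 18.8, 41.4 and 27.6. The 95% counting intervals of all 15 pairs of libraries overlapped, also those of libraries 2 and 5 at the ends of the 3.19-fold range. Overlap of intervals does not show equal levels, and a difference between libraries was not tested. The 6 reads of library 5 and the 3 reads of library 6 supplied 29.9% and 19.9% of the mean. Both pipelines that count whole reads gave the same 288 reads, library by library. Per kb, the ligand CXCL16 was 147 times its receptor in Xenome and XenofilteR and 145 times in Kallisto, and 92.2, 92.1 and 90.5 times by canonical transcripts. CXCR6 lies within the span of FYCO1 on the opposite strand, a gene with a Xenome mean of 3117, but shares no exonic base with it. Reads of unspliced FYCO1 RNA there can be told apart only by strand, which the counting is not stated to have used. Their part in the CXCR6 mean was not tested.

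ANXA2 was low and was the member on which the pipelines differed most. The gene (chr15:60347134-60402883) had a mean normalized count of 13.2 with Xenome, 11.9 with XenofilteR and 19.1 with Kallisto, a gap of 1.6 times between the highest and the lowest. In libraries 1 to 6, Xenome had 104, 98, 121, 2, 2 and 0 reads, and XenofilteR had 100, 99, 118, 2, 1 and 0. The normalized counts from Xenome were 17.6, 18.4, 24.9, 4.69, 13.8 and 0. The single read by which the pipelines differed in library 5 accounts for most of the fall of the mean, since 1 read of that library adds 1.15 to a mean and 1 read of library 1 adds 0.0281. The counting intervals of libraries 3 and 4 did not overlap (20.7 to 29.7 against 0.568 to 16.9), and those of the other 14 of 15 pairs did. The interval of the 0 reads of library 6 reached 33.9 normalized counts, above the level of every other library.

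ANXA2 has processed pseudogenes, intronless copies of its mRNA, that hold much of its coding sequence. Of the 968 distinct 50-base sequences in the ANXA2 coding sequence, 575 (59.4%) occurred in ANXA2P2, with a longest shared run of 221 bases, and 71 (7.33%) occurred in ANXA2P1. ANXA2P2 had a mean normalized count of 8.05 with Xenome and 7.39 with XenofilteR, and ANXA2P1 had 1.40 with both. These means rest on library 5, whose 4 and 1 reads supplied 57.2% and 82.1% of them with Xenome. Without that library the Xenome means were 4.13 and 0.301. No Kallisto mean is listed for either. Xenome reads of ANXA2P2 in libraries 1 to 6 numbered 5, 6, 12, 3, 4 and 1, more than ANXA2 in libraries 4, 5 and 6. With XenofilteR they numbered 8, 6, 13, 0, 3 and 2, which is fewer than ANXA2 in library 4 (0 against 2) and more in libraries 5 and 6. The split of reads between ANXA2 and ANXA2P2 is therefore uncertain, and its part in the higher Kallisto mean of ANXA2 was not tested.

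S100A10 was the highest of the annexin A2 group. Its mean normalized count (chr1:151982915-151993859) came to 72.3 by Xenome, 73.3 by XenofilteR and 70.3 by Kallisto, above 36.5% of protein-coding genes by mean and above 46.9% per kb in Xenome. Libraries 1 to 6 held 400, 470, 473, 22, 12 and 5 reads with Xenome (395, 465, 466, 22, 12 and 6 with XenofilteR), and the Xenome normalized counts were 67.5, 88.4, 97.3, 51.6, 82.9 and 45.9. All 6 libraries thus lay within 2.12 times of each other. The counting intervals did not overlap in 4 of 15 pairs, library 1 against libraries 2 and 3, and library 4 against libraries 2 and 3. Per kb, S100A10 was 62.5 times ANXA2 with Xenome, 70.5 times with XenofilteR and 42.2 times with Kallisto. The exons of all ANXA2 transcripts together span 11574 bases and its canonical transcript 1554, and per kb of canonical transcripts the ratios were 12.6, 14.3 and 8.54. The search at a tolerance 10 times wider found 2 sets of whole reads for the Xenome mean and 3 for the XenofilteR mean, so the reads of S100A10 are less certain than those of the other 5 solved genes, which kept 1 set.

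ANXA2R, the receptor described for annexin A2, was read in all 6 libraries. The gene (chr5:43039081-43043170) had a mean normalized count of 26.2 with Xenome and XenofilteR and 32.7 with Kallisto. Its reads in libraries 1 to 6 numbered 141, 147, 120, 15, 4 and 2, or 23.8, 27.7, 24.7, 35.2, 27.6 and 18.4 normalized counts. The counting intervals of all 15 pairs of libraries overlapped, and the range of 1.91 times was the narrowest of the 6 solved genes with Xenome (with XenofilteR, S100A10 was narrower at 1.85 times). XenofilteR gave 2 fewer reads, both in library 2. Per kb, ANXA2R stood above ANXA2, whose level was 0.0974 of it in Xenome and 0.112 of it in Kallisto (0.308 and 0.356 by canonical transcripts). The antisense gene ANXA2R-AS1 had a Xenome mean of 193.9 and overlaps 115 of the 2234 exonic bases of ANXA2R. Of the 2185 distinct 50-base sequences of ANXA2R, 67 (3.07%) occurred in ANXA2R-AS1. ANXA2R-OT1, on the same strand, had a Xenome mean of 463.1 and shares no exonic base with ANXA2R in the annotation used here.

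Per kb of exons, the order of the Xenome means was CXCL16 (899.5), ACKR3 (268), S100A10 (71.4), ANXA2R (11.7), CXCR6 (6.11), ANXA2 (1.14), CXCL12 (0.741) and CXCR4 (0.358), and XenofilteR and Kallisto gave the same order. Such levels depend on the length used, here the union of all exons. With intervals of counting error only, which give a library with 0 reads no error, ANXA2 (0.837 to 1.45) overlapped CXCL12 (0.448 to 1.03), and CXCL12 overlapped CXCR4 (0.237 to 0.478). The intervals of the other neighbours did not overlap, those of ANXA2R (8.61 to 14.9) and CXCR6 (4 to 8.22) by a narrow margin. Over the solved libraries, the ranges of ANXA2R (8.24 to 15.8) and CXCR6 (3.44 to 11) overlapped as well. Per kb of the canonical transcripts, an alternative added after seeing the data, the order with Xenome was the same, but ANXA2 came to 8.51 (6.23 to 10.8), which overlapped CXCR6 at 11.7 (7.68 to 15.8). Library by library on that scale, ANXA2 stood above CXCR6 in libraries 1, 2 and 3 (11.3, 11.9 and 16 against 8.92, 6.60 and 10.2) and below it in libraries 4, 5 and 6 (3.02, 8.89 and 0 against 9.53, 21.1 and 14), where few reads were counted. With Kallisto, ANXA2 (12.3) then stood above CXCR6 (12). CXCL12 came to 2.36 and CXCR4 to 0.622 per canonical kb. With 3 reads in each library at 0, also added after seeing the data, they would come to 6.53 and 6.15, and ANXA2 to 11.5. Per kb of exons these values would be 2.05 for CXCL12, 3.53 for CXCR4 and 1.54 for ANXA2, the reverse of the listed order. Per canonical kb the listed order would be kept. There the counting intervals of ANXA2, CXCL12 (1.43 to 3.3) and CXCR4 (0.412 to 0.833) did not overlap. In libraries 1, 2 and 3 the intervals of the normalized counts of ANXA2, not divided by length, lay above those of CXCL12. So the order of these 3 genes is not set per kb of exons, and it depends on the length used. In the means as listed, CXCL12 was 7th and CXCR4 8th in all 3 pipelines by both lengths, and CXCR6 and ANXA2 were the only genes to exchange places.

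**Figure D2:**
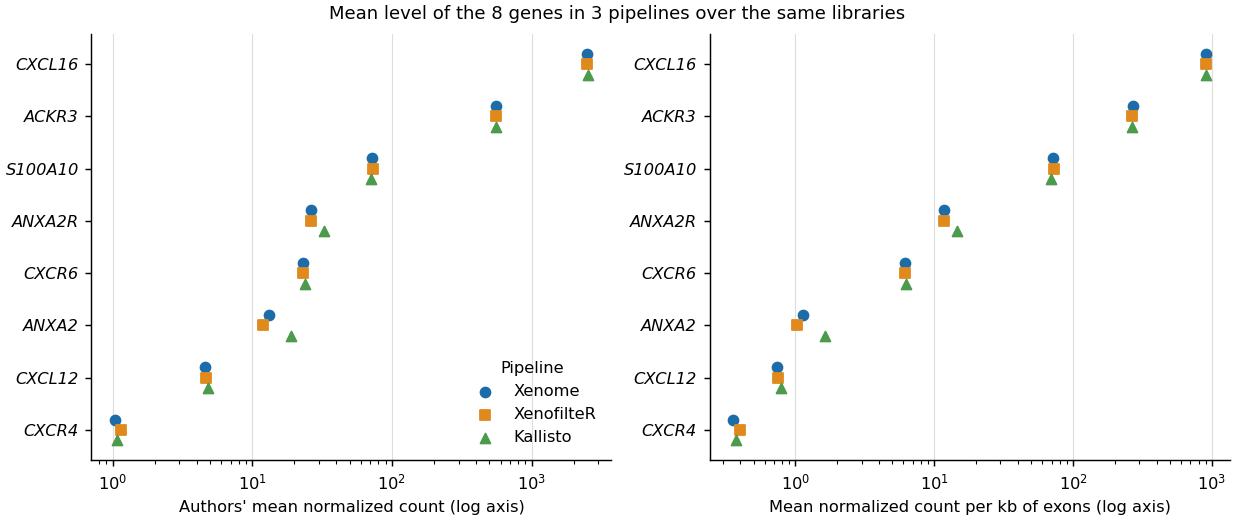
Authors' mean normalized count (left, log axis) and the same mean per kb of exons (right, log axis) of the 8 genes in the Xenome, XenofilteR and Kallisto pipelines, 1 symbol per pipeline. From CXCL16 at 899.5 to CXCR4 at 0.358 per kb (Xenome) the order is the same in each pipeline, and the symbols lie farthest apart for ANXA2 and ANXA2R.

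Seen against all protein-coding genes with a Xenome mean above 0, CXCL16 and ACKR3 were the members above the median mean of 517. ANXA2R and CXCR6 stood above 30.8% and 30.1% of these 17827 genes by mean count, ANXA2 above 26.8%. The lower quartile was 9.81, and the means of CXCL12 and CXCR4 as listed lay below it (12.6 and 10.3 with 3 reads in each library at 0).

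**Figure D3:**
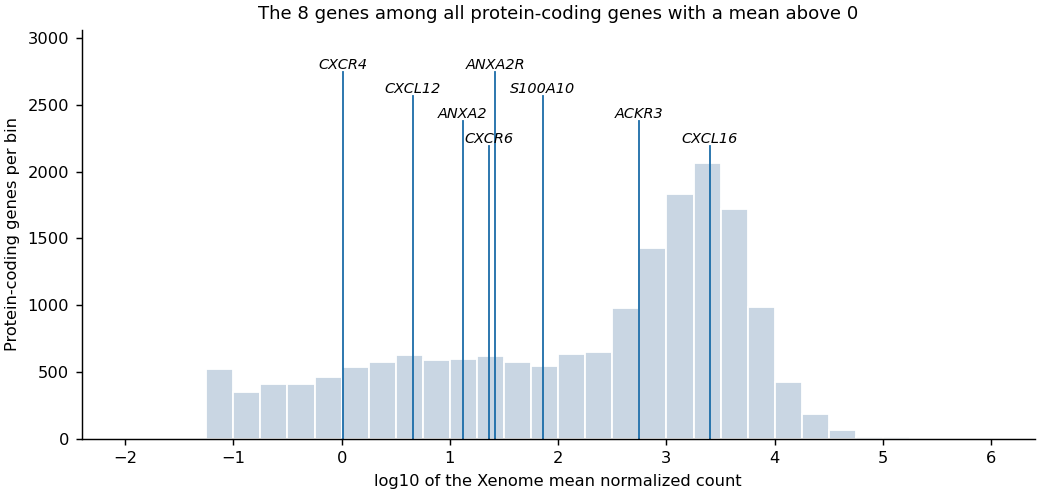
Number of protein-coding genes (vertical axis) by log10 of the Xenome mean normalized count (horizontal axis, bins of 0.25), with the 8 genes marked by lines. CXCL16 (2512) lies in the main peak, ACKR3 (555) on its left flank, and the other 6 genes, at means from 1.04 to 72.3, lie in the low tail.

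The 3 pipelines read the same libraries and are not replicates of each other. They differ in how species are separated, and Kallisto also in how reads are assigned and to which reference, and which of these steps moves a ratio was not tested. The log2 ratio of the XenofilteR to the Xenome mean lay between -0.004 and 0.028 for 6 of the 8 genes. It was 0.15 for CXCR4 and -0.16 for ANXA2, both outside the middle 95% of the 13347 protein-coding genes with a Xenome mean of at least 10 (-0.04 to 0.12). The ratio of CXCR4 rests on 4 reads, came to 0.07 without library 1, and is set against genes with higher means than its own. That of ANXA2 rests on 1 read of library 5, and without that library it was -0.03, inside the middle 95%. The log2 ratio of the Kallisto to the Xenome mean was largest for ANXA2 (0.53) and ANXA2R (0.32), lay between -0.04 and 0.09 for the other 6, and stayed inside the middle 95% of protein-coding genes (-0.39 to 2.69) for all 8. Within 1.5 times of Xenome lay 8 of 8 members with XenofilteR, beside 99.6% of those protein-coding genes, and 8 of 8 with Kallisto, beside 85.1%.

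**Figure D4:**
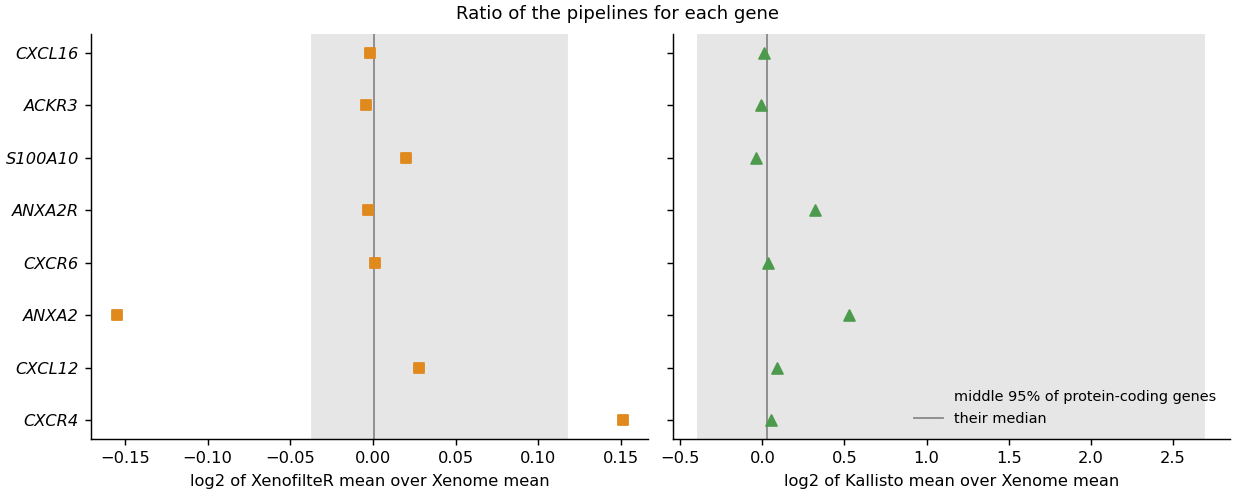
Log2 ratio (horizontal axes) of the XenofilteR mean (left) and the Kallisto mean (right) to the Xenome mean for each gene (vertical axis). The grey band is the middle 95% of protein-coding genes with a Xenome mean of at least 10 and the line their median. ANXA2 and CXCR4 lie outside the XenofilteR band, at -0.16 and 0.15 (inside it, at -0.03 and 0.07, without libraries 5 and 1 in turn), and the Kallisto band, which is far wider, holds all 8 genes.

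The share of sequence that a member has in common with mouse transcripts is given beside these ratios as a description. Of the distinct 31-base sequences of all its transcripts, ACKR3 shared 3.43% with mouse transcripts, CXCL12 2.14%, S100A10 1.68%, CXCR4 0.786%, ANXA2 0.382% and CXCL16 0.0718%, while CXCR6 and ANXA2R shared 0. The median of 19874 protein-coding genes was 0.502%. ACKR3, with the largest share of 31-base sequences, had nearly the same mean in each pipeline. ANXA2R, with none, was 1.25 times higher with Kallisto. Whether the shared sequence goes with the ratios was not tested.

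The other CXC chemokines were low with Xenome. Of 12 CXC ligands besides CXCL12 and CXCL16, 9 had a Xenome mean listed and 1 reached a mean of 10, CXCL13 at 13.5, a chemokine that draws B cells. CXCL2 and CXCL8 were lowest at 0.0627, each from 2 reads of library 2, and CXCL1, CXCL3 and CXCL6, with no Xenome mean, were listed at 0 by Kallisto. The pipelines differed by more than 4 times for 4 of the ligands: CXCL2, CXCL5 and CXCL8, which draw neutrophils, and CXCL14. The first 3 of these were at 2.64, 4.27 and 0.273 with Kallisto, up from 0.0627, 0.725 and 0.0627 with Xenome. CXCL14 had a mean of 6.01 with Xenome, 0.0965 with XenofilteR and 172.2 with Kallisto. Among all protein-coding genes above 0 in every pipeline, 13.2% differed by more than 4 times (4.49% of those with a Xenome mean of at least 10), and 0 of the 8 members did.

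The other chemokine receptors were low too. Of 18, 14 had a Xenome mean listed, and CCR10 (20.3), a receptor of skin-homing lymphocytes, and ACKR2 (15.8), a scavenger of inflammatory CC chemokines, reached 10. CXCR3 was lowest at 0.0563. Of the 4 with no Xenome mean, CCR6 had a mean of 24.7 with Kallisto, CCR1 had 0.0317, and CCR2 and ACKR1 were listed at 0. CXCR5, CCR4 and ACKR2 differed by more than 4 times between pipelines, each highest with Kallisto, at 31, 56.6 and 98.3. Of the 21 chemokine receptors examined, the 3 members included, ACKR3 was the 1 with a mean above 100 in any pipeline. This cutoff was not planned, and ACKR2 lay just below it with Kallisto (98.3).

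Genes whose products act with these chemokines and receptors mostly had high means. All 15 genes of this list, which holds the CXCL12-cleaving peptidase DPP4, the sheddases of CXCL16 ADAM10 and ADAM17, G protein subunits, receptor kinases and arrestins, reached a mean of 10, and 11 reached 1000. Of the 17827 protein-coding genes with a Xenome mean above 0, 74.9% reached 10 and 41% reached 1000. HMGB1, a chromatin protein that can bind CXCL12 outside the cell, was highest at 28051 with Xenome (33218 with XenofilteR, 61597 with Kallisto), and CD74, a receptor for MIF, was lowest at 14.9. MIF, a cytokine that also binds CXCR4 and ACKR3, had a mean of 33.1 with Xenome, 33.2 with XenofilteR and 9941 with Kallisto, so its level cannot be stated from these means. DPP4 had 9762, ADAM10 11850, ADAM17 886 and the arrestin ARRB2 1891 with Xenome.

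The means of other annexins were spread widely around that of ANXA2. Of 12 other annexins, 11 had a Xenome mean listed, 7 reached 10 and 5 reached 1000, with ANXA7 highest at 6841 and ANXA8L1 lowest at 0.0941. ANXA8 and ANXA8L1 differed by more than 4 times between pipelines, and ANXA8 went from 0.332 with Xenome to 37.8 with Kallisto. Among 16 other S100 genes, 11 had a Xenome mean, 6 reached 10 and S100A11 alone reached 1000, at 4069. S100A8 was lowest at 0.0563. S100A6 was at 3.50 with Xenome, 49.0 with XenofilteR and 2.31 with Kallisto.

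Of 7 genes that act with annexin A2 in plasmin formation or at the membrane, 6 had a Xenome mean and 4 reached 10. AHNAK, a large scaffold protein that binds the annexin A2 complex, was highest at 13569, and the protease CTSB had 3785. PLAT, the plasminogen activator that the complex binds, had a mean of 19.1 and the urokinase receptor PLAUR 24.3 with Xenome, the latter 54.9 with Kallisto. Plasminogen itself, PLG, was lowest of the 6 with a Xenome mean, at 0.203. PLG and TLR2 differed by more than 4 times between pipelines and were highest with Kallisto, at 8.27 and 126.8.

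For the 6 members with a mean of at least 10 in every pipeline, the protein-coding gene with the most similar triple of means was found among 17358 genes, by Euclidean distance over the log2 means. It was DMWD for ACKR3 (distance 0.014), ORC2 for CXCL16 (0.0078), RNF128 for CXCR6 (0.012), SLC26A3 for S100A10 (0.03) and NAT16 for ANXA2R (0.022). ANXA2 had no gene within 0.1 of it, and the nearest was CHST7 at 0.14. ORC2 was 1 of 203 genes within 0.1 of CXCL16. Likeness here rests on 3 means of the same libraries and is no more than a similar level.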

How the data were processed

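In the Xenome pipeline, human reads were kept first and then aligned to GRCh38 with HISAT2. In the XenofilteR pipeline, HISAT2 alignment to both genomes came first and mouse reads were then removed. Both ended in counting per gene with featureCounts. The third pipeline quantified reads with kallisto against human plus mouse transcripts. Each pipeline ended in a DESeq2 run by the authors, who deposited 1 table, and the builds named in the submitters' processing notes are GRCh38 and GRCm38. Versions are not given in the sources used here. The 3 columns used hold the authors' mean over both groups of gene counts divided by size factors. A further 15 columns hold the authors' comparison of the groups (log2 fold changes, their standard errors, Wald statistics, p-values and adjusted p-values) and were not used. The count model planned for the case that counts per library existed was not run, since the means belong to no labelled library.

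Of 41734 rows, 21 that list a gene again were dropped. Percentiles were taken among protein-coding genes with a mean above 0, and levels between genes were compared per kb of the union of exons (GENCODE release 44), which 19874 of 19939 protein-coding genes had. Whole reads were solved for means up to 80 in the Xenome and XenofilteR columns. The lowest means of the table gave the step by which a single read of a library raises a mean, for 6 libraries, and an exhaustive search then listed every set of whole reads that gives a mean to 15 significant digits, within 0.75 of the last digit. All 20014 Xenome genes and all 19873 XenofilteR genes with a mean below 10 had 1 solution. On simulated reads with similar size factors, 100% of 2000 genes were recovered and 0 were wrong. Recovery at means as high as those of S100A10 (72.3 with Xenome, 73.3 with XenofilteR) was not tested separately. For S100A10 a tolerance 10 times wider left 2 sets of whole reads with Xenome and 3 with XenofilteR. The size factors with Xenome were 5.93, 5.31, 4.86, 0.427, 0.145 and 0.109. Kallisto means are sums of estimated reads and were not solved. Intervals are exact 95% Poisson intervals of the reads, or 1.96 counting SDs of a mean (for ACKR3 and CXCL16 the largest SD that their means allow), and floors are 3 reads. Both cover counting error only, and PCR reads without molecular identifiers are not independent molecules. Total reads per labelled library were not analysed here.

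For shared sequence, every distinct stretch of 31 bases in a gene's transcripts was looked up, in both orientations, among mouse transcripts (GENCODE release M21), and the percent found is given. Coding identity comes from a global alignment of the canonical human coding sequence with the mouse transcript of nearest coding length (Biopython 1.88). Gene coordinates are those of the table, and those of the printed stretches come from GENCODE. Computations were made with numba 0.67.0, scipy 1.17.1, pandas 2.3.3 and numpy 2.4.6 under python 3.11.15, and plots with matplotlib 3.10.9.

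The 8 members, the gene lists and the tests were chosen with earlier results of these data known. Of each list, the genes with the highest and lowest Xenome mean and those whose pipelines differ by more than 4 times were named, with a few further genes (DPP4, ADAM10, ADAM17, ARRB2, CTSB, PLAT and PLAUR) chosen after their values were seen. Some planned list genes are not reported here. Alternatives were other sets of genes for the percentiles, pseudocounts of 1 and 10 and a minimum mean of 10 for the ratios, XenofilteR means and a tolerance 10 times wider for the reads, leaving out each solved library, the canonical transcript in place of all exons as the length (added after seeing the data, as were leaving out each solved library for the pipeline ratios and the pseudogenes and the levels of ANXA2 and CXCR6 per library), and 50-base sequences or protein-coding transcripts only for the shared sequence.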

Additional observations from a re-analysis of the deposited data

How the results depend on the processing

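Leaving out 1 solved library at a time moved the Xenome mean of each of the 6 solved genes by less than 1.96 counting SDs. The mean normalized count ranged from 3.12 to 5.46 for CXCL12, from 0.706 to 1.25 for CXCR4, from 19.4 to 25.1 for CXCR6, from 10.9 to 15.9 for ANXA2, from 67.3 to 77.5 for S100A10 and from 24.4 to 27.8 for ANXA2R. ACKR3 and CXCL16 were too high to be solved, so this was not run for them. The number of members within 1.5 times of Xenome stayed at 8 of 8 with pseudocounts of 1 and 10, for XenofilteR and for Kallisto, and all 6 members with a Xenome mean of at least 10 were within it, as were 99.6% (XenofilteR) and 85.1% (Kallisto) of protein-coding genes with such a mean. Per kb of the canonical transcripts, chosen after seeing the data, S100A10 stood 12.6 times above ANXA2 in place of 62.5 times, because the exons of all ANXA2 transcripts add up to 11574 bases. Percentiles depend on the genes taken as reference. Among genes with a Xenome mean of at least 10, CXCL16 stood above 68.4%, ACKR3 above 34.4%, S100A10 above 15.2% and CXCR6 above 6.61%. With 50-base in place of 31-base sequences, CXCL12 had the largest share in common with mouse transcripts, 1.18% against 0.94% for ACKR3. With protein-coding transcripts only, the share of ANXA2 went from 0.382% to 1.07%. No paired analysis was possible because the values belong to no labelled library. The planned count model of co-culture against C4-2B alone was not run for the same reason. The log2 ratio of XenofilteR to Xenome came inside the middle 95% of protein-coding genes for ANXA2 without library 5 (-0.03) and for CXCR4 without library 1 (0.07). Depth limits the solved genes, since 3 reads of library 6 amount to 27.6 normalized counts, above the Xenome mean of each of them except S100A10.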

Other observations

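The size factors of the solved libraries fall into separate clusters. With Xenome, those of libraries 1, 2 and 3 were 5.93, 5.31 and 4.86, and those of libraries 4, 5 and 6 were 0.427, 0.145 and 0.109, so that library 1 was 54.4 times as deep as library 6 in human reads. XenofilteR gave nearly the same factors, from 5.93 to 0.109. The labels of the libraries were not inferred from these values. For the 8 genes this means that 1 read of library 6 adds 1.53 to a mean normalized count and 1 read of library 1 adds 0.0281.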
